A study of Mus musculus with 27 samples.

Results

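This account follows 45 genes that code for enzymes and readers of histone and DNA methylation, in hepatocyte RNA from mice of 9 inbred strains. They are the 45 genes, of 43346 in the count table, whose Ensembl identifier carries the symbol of a chosen histone methyltransferase, histone demethylase, DNA methyltransferase, TET enzyme or methyl-CpG reader in the GENCODE M21 mouse annotation. All 45 were found in the table. The choice used names, not measured values. The strains were C57BL/6J (replicates 1, 2 and 4), 129S1/SvImJ (1, 2 and 3), A/J (1, 2 and 3), DBA/2J (2, 3 and 4), NOD/ShiLtJ (1, 2 and 3), NZO/HlLtJ (1, 2 and 3), WSB/EiJ (2, 3 and 4), CAST/EiJ (1, 4 and 5) and PWK/PhJ (1, 2 and 3), with 3 libraries each and 27 in all. All mice were female and 12 weeks old, no treatment or transgene is given in the labels, and the labels call the libraries of a strain biological replicates. C57BL/6J is the reference strain of the mouse genome, NOD/ShiLtJ is prone to autoimmune diabetes, NZO/HlLtJ is prone to obesity, and WSB/EiJ, CAST/EiJ and PWK/PhJ descend from wild mice. The wider study set histone marks, DNA methylation and expression side by side to ask how genetic differences between strains relate to each. Only the expression of the genes is analysed here.

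Histone methyltransferases add methyl groups to lysines of histone tails, and demethylases remove them. Methylation of lysine K4 of histone H3 (H3K4) marks promoters and enhancers, H3K36 and H3K79 methylation marks transcribed gene bodies, and H3K9 and H3K27 methylation marks silenced chromatin. DNA methylation is laid down on cytosines of CG dinucleotides (CpG) by Dnmt3a and Dnmt3b, is copied after replication by Dnmt1 with Uhrf1, and is oxidised by the TET enzymes on the way to its removal. All the methyltransferases draw on S-adenosylmethionine, which is made in the liver in large amounts.

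The libraries held between 17015932 and 35078483 counts each, and levels are given as CPM, a count divided by the library size after TMM scaling, on which 1 count is worth 0.0253 to 0.0516. All 10 hepatocyte markers on a fixed list were detected, with summed levels between 120029 and 372033 CPM per library. RNA of other liver cells was present and differed between strains. The summed level of 12 Kupffer cell markers (liver macrophages) ran from 39.1 to 459 CPM per library and that of 12 liver endothelial markers from 67.2 to 863 CPM, and all 12 genes of each list differed between strains. Kupffer cell sums were highest in C57BL/6J (235 to 323 CPM), PWK/PhJ (158 to 459 CPM) and A/J (156 to 328 CPM) and lowest in 129S1/SvImJ (48.2 to 104 CPM). Endothelial sums were highest in PWK/PhJ (264 to 863 CPM) and lowest in NZO/HlLtJ (68.2 to 120 CPM). Of 10 stellate cell markers 7 differed between strains, with sums of 31.6 to 190 CPM, while lymphocyte and cholangiocyte markers summed to at most 12.8 and 9.64 CPM. No marker of these lists was at 0 in all libraries. In such bulk RNA, fewer cells of a type and less RNA per cell cannot be told apart. Results were therefore also computed with the mean log2 CPM of the Kupffer cell markers and of the endothelial markers as covariates. Calls lost in that fit are named.

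The promoters of these genes were rich in CpG, the dinucleotide that DNA methyltransferases act on. RefSeq promoter windows for the GRCm38.p6 assembly, from 250 bases before to 50 after a transcription start, were found for 32 of the 45 genes, in 47 windows. The motif searched was CG, which reads the same on both strands. The windows of the 32 genes held a median of 29 CG, against 7 over 32851 windows of 27025 genes, and 91.5% of them (43 of 47) held at least 10 CG, against 43.5% of all windows. The 250 bases upstream of Setdb1, Setdb2 and Dnmt3b are shown, with each CG in capitals, because these genes were among those that differed most between strains and differ in their number of CG. Setdb1 lies at chr3:95357203-95357452 (minus strand, 13 CG), Setdb2 at chr14:59440881-59441130 (minus strand, 24 CG) and Dnmt3b at chr2:153649199-153649448 (plus strand, 21 CG). The letters are those of the C57BL/6J reference and not of the other 8 strains.
Setdb1: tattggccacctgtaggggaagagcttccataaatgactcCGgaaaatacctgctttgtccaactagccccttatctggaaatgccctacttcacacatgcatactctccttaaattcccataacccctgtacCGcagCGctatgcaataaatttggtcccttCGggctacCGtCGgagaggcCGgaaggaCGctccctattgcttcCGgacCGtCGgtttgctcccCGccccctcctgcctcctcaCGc
Setdb2: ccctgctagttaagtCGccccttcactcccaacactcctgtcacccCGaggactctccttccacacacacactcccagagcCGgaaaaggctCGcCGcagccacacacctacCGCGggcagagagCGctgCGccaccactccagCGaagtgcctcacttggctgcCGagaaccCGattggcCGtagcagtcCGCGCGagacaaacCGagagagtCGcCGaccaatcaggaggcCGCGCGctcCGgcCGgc
Dnmt3b: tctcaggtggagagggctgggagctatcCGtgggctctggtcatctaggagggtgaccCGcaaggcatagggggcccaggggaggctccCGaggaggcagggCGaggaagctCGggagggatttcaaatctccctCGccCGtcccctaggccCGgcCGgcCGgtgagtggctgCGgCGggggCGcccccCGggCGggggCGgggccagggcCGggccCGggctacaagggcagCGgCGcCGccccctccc
The CG of the Setdb1 stretch lie, all but the first, in the part nearer the start, and those of Setdb2 and Dnmt3b reach farther upstream. Differences between strains in these letters were not analysed here.

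Kdm2b, Setdb1 and Setdb2 had the smallest adjusted p for a difference between strains. Of the 44 that passed the filter on low counts, 19 (43.2%) differed among the 9 strains by edgeR's quasi-likelihood F test at a Benjamini-Hochberg adjusted p under 0.05, against 74.2% of all 14482 genes tested. Of protein-coding genes 74.6% were called, and of the 9605 within the same range of mean level 72.9%. The filter removed Tet1, which never exceeded 5 counts in a library. The ratio of the highest to the lowest strain mean, on log2 CPM with a prior count of 2, had a median of 1.52-fold over the 44 genes, 2.24-fold over all genes and 1.98-fold over protein-coding genes within that range of mean level. The SD between libraries of a strain had a median of 0.22 on the log2 scale, against 0.28 over all genes and 0.26 over those protein-coding genes. Strain accounted for a median of 49.7% of the variance of their log2 CPM, against 66.6% over all genes and 65.1% over those protein-coding genes. A 2-fold range between strain means was reached by 9 of the 44 genes, all of them called, against 57.8% of all genes and 49.2% of those protein-coding genes.

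The share called varied with level. Among the 7 genes averaging under 5 CPM, 5 (71.4%) were called, beside 70.1% of protein-coding genes of that level. Between 5 and 10 CPM, 2 of 7 genes (28.6%) were called, beside 69.9%. From 10 to 20 CPM it was 10 of 19 (52.6%), beside 72.0%, and from 20 to 100 CPM 2 of 11 (18.2%), beside 80.4%. From 10 to 20 CPM, the band with most of these genes, the median range was 1.60-fold, beside 1.66-fold over protein-coding genes, and the median SD within strains 0.215, beside 0.208, on the log2 scale. A 2-fold range was reached there by 3 of 19 genes, beside 28.4% of protein-coding genes. The bounds of these bands were chosen with results known, and the shares were not tested. The 5 genes called under 5 CPM were Uhrf1, Suv39h2, Setd7, Dnmt3b and Suv39h1.

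**Figure D1:**
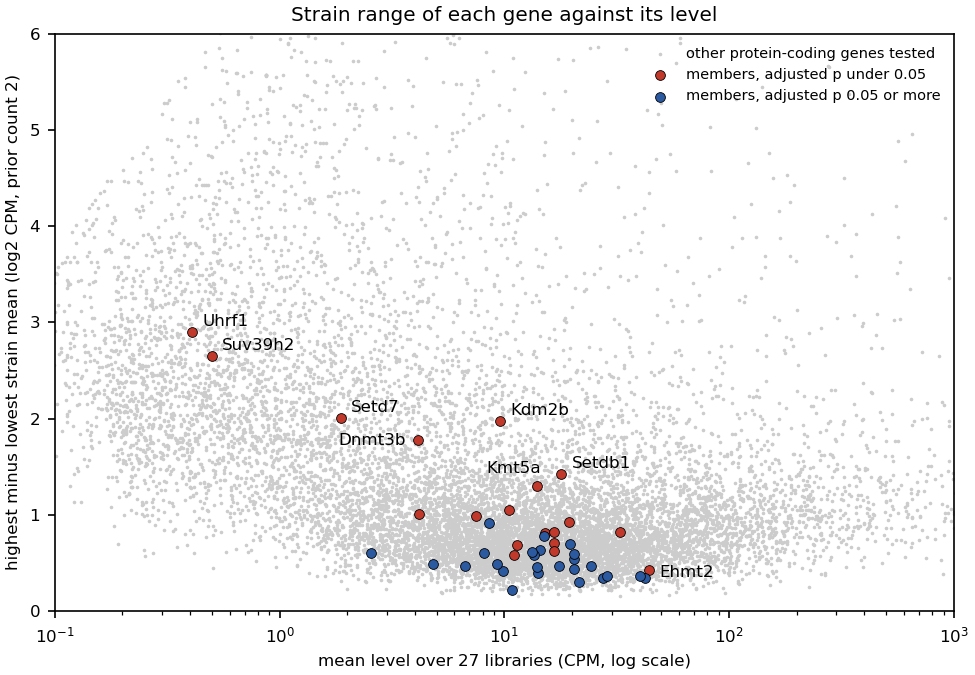
Difference between the highest and the lowest strain mean (log2 CPM, prior count 2) against the mean level over 27 libraries (CPM, log scale) for 12820 protein-coding genes (grey) and the 44 genes of histone and DNA methylation (red, called among strains; blue, not called). The red points with the largest range lie at low level, and above 20 CPM all but 2 points are blue; 356 grey genes lie outside the axes.

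As CPM per kilobase of the longest transcript, a scale that depends on the length chosen, Ehmt2 was the most abundant at 11. It was followed by Mbd2 at 8.54, Kmt5a at 5.08 and Kdm2a at 4.67 CPM per kilobase. Lowest were Tet1 at 0.00443, Uhrf1 at 0.114, Suv39h2 at 0.115 and Setd7 at 0.253 CPM per kilobase. Genes called for strain differences stood at both ends of this order. The order can change with the length, which for Kmt5a was 2739 bases by longest transcript and 5307 by the union of all exons.

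Among 8 genes of the H3K4 methyltransferase group, 4 were called, beside 74.2% of all genes tested: Setd1a, Setd7, Kmt2a and Kmt2d. Setd1a codes for a catalytic subunit of the complex that places most trimethylated H3K4 at promoters. Setd1a stood at 17.6, 14.9 and 20.6 CPM in C57BL/6J, at 13.3, 14 and 15.6 CPM in 129S1/SvImJ and at 18.5, 16.6 and 21.8 CPM in A/J. In DBA/2J, Setd1a was at 17.7, 14.7 and 14.6 CPM, in NOD/ShiLtJ at 14.7, 13.7 and 12.3 CPM and in NZO/HlLtJ at 13.3, 13.1 and 13.9 CPM. WSB/EiJ had Setd1a at 17.6, 18 and 16.3 CPM, CAST/EiJ at 13.9, 15.5 and 15.1 CPM and PWK/PhJ at 11.9, 9.62 and 10.7 CPM. Setd1a was lowest in PWK/PhJ, whose 3 libraries lay under all 24 others, and highest in A/J and C57BL/6J. Its strain means spanned 1.76-fold (edgeR F test, adjusted p = 0.00032), and PWK/PhJ differed from the mean of the other 8 strains by a log2 change of -0.54 ± 0.10 (SE, adjusted p = 0.000259). No library left out ended that call. The Setd1a counts were not whole numbers in any of the 27 libraries, as happens when reads are divided between genes, and its exons overlap 9430064I24Rik on the other strand and Gm49388 on its own. Their part in the result was not tested.

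Setd7 codes for an enzyme that places a single methyl group on H3K4 and on several non-histone proteins. Setd7 stood at 3.42, 2.67 and 3.07 CPM in C57BL/6J, at 1.18, 1.6 and 1.47 CPM in 129S1/SvImJ and at 2.88, 2.76 and 3.4 CPM in A/J. In DBA/2J, Setd7 was at 2.41, 3.36 and 3.06 CPM, in NOD/ShiLtJ at 0.584, 1.14 and 1.11 CPM and in NZO/HlLtJ at 1.68, 1.62 and 0.577 CPM. WSB/EiJ had Setd7 at 2.32, 2.1 and 1.7 CPM, CAST/EiJ at 0.266, 1.48 and 0.825 CPM and PWK/PhJ at 2.04, 1.1 and 0.83 CPM. The C57BL/6J, A/J and DBA/2J libraries were high, at 2.41 CPM or more, and no library of the other 6 strains exceeded 2.32 CPM. Strain means spanned 4.0-fold, with 0.857 ± 0.608 CPM (SD, n = 3) in CAST/EiJ and 3.05 ± 0.375 CPM in C57BL/6J (edgeR F test, adjusted p = 0.00107). Setd7 shares exon sequence with 5031434O11Rik, which averaged 0.0891 CPM.

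Kmt2a and Kmt2d, which code for MLL-family enzymes acting at promoters and at enhancers respectively, were both highest in WSB/EiJ. Kmt2a stood at 27.6, 27 and 30.5 CPM there, above every other library except A/J replicate 3 (29.9 CPM) and DBA/2J replicate 2 (27.7 CPM), and was lowest in NZO/HlLtJ at 15.2 ± 4.0 CPM (SD, n = 3). WSB/EiJ exceeded the other 8 strains in Kmt2a by 0.64 ± 0.15 on the log2 scale (SE, edgeR adjusted p = 0.00241), and the adjusted p over strains was 0.00672. Kmt2d averaged 43.9 ± 7.67 CPM in WSB/EiJ and 24.8 ± 4.2 CPM in CAST/EiJ (edgeR F test, adjusted p = 0.0396). That call was lost when any of 9 libraries was left out, with adjusted p from 0.0531 without PWK/PhJ replicate 3 to 0.0963 without WSB/EiJ replicate 2; the other 7 were A/J replicate 2, DBA/2J replicate 2, NZO/HlLtJ replicates 1 and 2, WSB/EiJ replicate 3 and CAST/EiJ replicates 1 and 5. The other 4 genes of the group were not called in the reported fit. Setd1b, the close relative of Setd1a, missed the threshold at an adjusted p of 0.0502 and had its lowest mean in PWK/PhJ, 10.4 ± 2.98 CPM, and its highest in C57BL/6J, 18 ± 5.33 CPM. It passed in 6 of the 8 other fits on all libraries, with adjusted p from 0.0191 without a filter to 0.0456 with median-of-ratios size factors. It also passed in 5 fits without 1 library, those without C57BL/6J replicate 2 (0.0132), 129S1/SvImJ replicate 2 (0.0329), NZO/HlLtJ replicate 2 (0.0439), CAST/EiJ replicate 5 (0.0174) or PWK/PhJ replicate 3 (0.0204). Kmt2b, Kmt2c and Kmt2e, the last of which codes for a protein with little or no methyltransferase activity, spanned 1.46-, 1.38- and 1.35-fold (adjusted p 0.216, 0.191 and 0.0763).

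**Figure D2:**
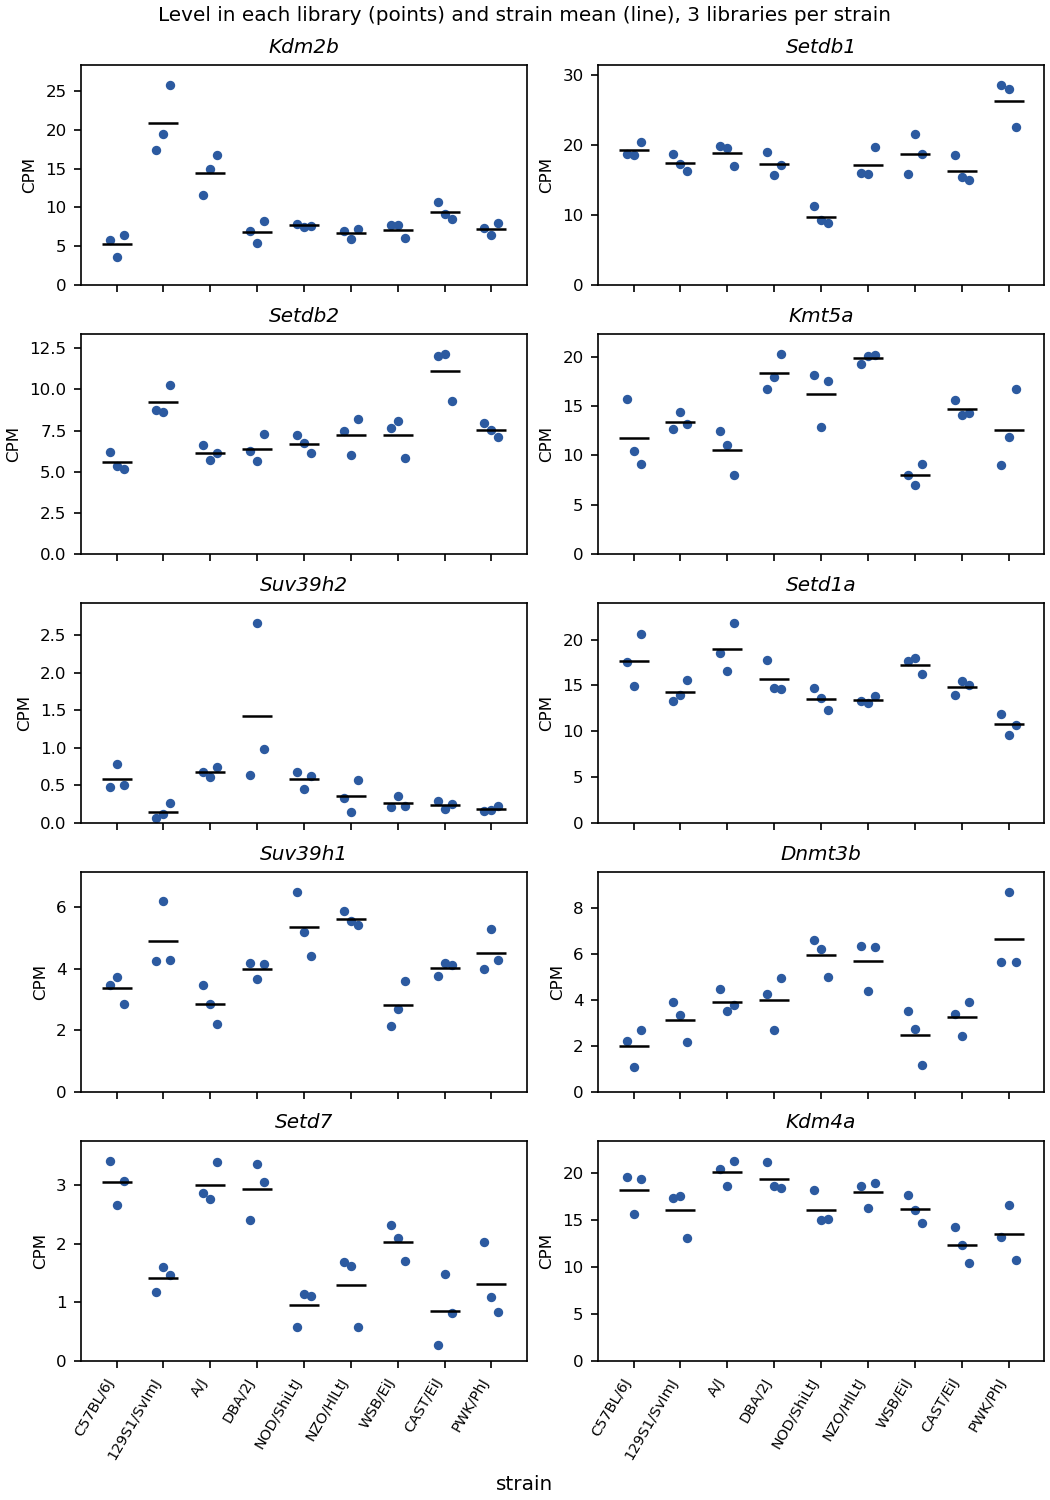
Level in CPM of the 10 genes with the largest F for strain, by strain; points are the 3 libraries of a strain and lines their mean. Kdm2b stands high in 129S1/SvImJ and A/J, Setdb1 is low in NOD/ShiLtJ and high in PWK/PhJ, and Setd7 is high in C57BL/6J, A/J and DBA/2J.

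Of the 5 methyltransferases of H3K36, H3K79 and H4K20, Kmt5a and Dot1l were called, beside 74.2% of all genes tested. Kmt5a codes for the enzyme that places the first methyl group on H4K20 and is needed for chromosome condensation. Kmt5a stood at 15.7, 10.4 and 9.13 CPM in C57BL/6J, at 12.6, 14.4 and 13.1 CPM in 129S1/SvImJ and at 12.5, 11 and 7.98 CPM in A/J. In DBA/2J, Kmt5a was at 16.7, 17.9 and 20.2 CPM, in NOD/ShiLtJ at 18.1, 12.9 and 17.6 CPM and in NZO/HlLtJ at 19.2, 20.04 and 20.2 CPM. WSB/EiJ had Kmt5a at 7.97, 7.02 and 9.16 CPM, CAST/EiJ at 15.6, 14.1 and 14.3 CPM and PWK/PhJ at 9.06, 11.9 and 16.8 CPM. WSB/EiJ was low in all 3 libraries, and NZO/HlLtJ and DBA/2J were high, with 2 libraries of NOD/ShiLtJ and 1 of PWK/PhJ above the lowest of DBA/2J. Strain means spanned 2.46-fold (edgeR F test, adjusted p = 0.000177). The log2 difference from the other 8 strains was -0.84 ± 0.17 (SE, adjusted p = 0.000555) in WSB/EiJ and 0.63 ± 0.14 (SE, adjusted p = 0.00217) in NZO/HlLtJ, and both held whichever library was left out. With the Kupffer cell and endothelial covariates the NZO/HlLtJ difference had an adjusted p of 0.148.

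Dot1l, the H3K79 methyltransferase, was highest in WSB/EiJ at 21.4 ± 3.28 CPM (SD, n = 3) and lowest in PWK/PhJ at 12.1 ± 2.06 CPM (edgeR F test, adjusted p = 0.00672), and no left-out library ended that call. The 3 other genes of this group act on H3K36 and were not called. Setd2, which codes for the enzyme of trimethylated H3K36, had the largest adjusted p of the 44 genes (0.758), with strain means from 25 ± 7.11 to 30.9 ± 1.86 CPM. Ash1l (1.29-fold, adjusted p = 0.407) was the third in that order and Nsd1, at 42.1 CPM the second most counted of the 44, spanned 1.26-fold (adjusted p = 0.285). A p over the threshold does not show that the strains were equal.

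Of the 7 H3K9 methyltransferase genes 5 were called, beside 74.2% of all genes tested; the groups were not tested against each other. Setdb1 codes for the enzyme that places trimethylated H3K9 at endogenous retroviruses. Setdb1 stood at 18.8, 18.5 and 20.4 CPM in C57BL/6J, at 18.7, 17.3 and 16.2 CPM in 129S1/SvImJ and at 19.8, 19.6 and 17 CPM in A/J. In DBA/2J, Setdb1 was at 19, 15.8 and 17.2 CPM, in NOD/ShiLtJ at 11.3, 9.29 and 8.82 CPM and in NZO/HlLtJ at 16, 15.9 and 19.7 CPM. WSB/EiJ had Setdb1 at 15.9, 21.6 and 18.7 CPM, CAST/EiJ at 18.5, 15.4 and 15.1 CPM and PWK/PhJ at 28.5, 28 and 22.5 CPM. NOD/ShiLtJ was the lowest strain, with no library above 11.3 CPM, PWK/PhJ the highest, with none under 22.5 CPM, and the 21 libraries of the other 7 strains lay between, from 15.1 to 21.6 CPM. This was the only one of the 44 genes with both a strain under and a strain above all other libraries. Of all genes tested, 14.7% had a strain above all libraries of the other 8 and 10.8% a strain under them; of the 44 genes these were 3 (6.82%) and 2 (4.55%). The strain means of Setdb1 spanned 2.68-fold (edgeR F test, adjusted p = 3.49e-06). Against the other 8 strains the log2 difference was -0.93 ± 0.11 (SE, adjusted p = 1.45e-06) in NOD/ShiLtJ and 0.67 ± 0.10 (SE, adjusted p = 7.94e-06) in PWK/PhJ.

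Setdb1 shares exon sequence with Cers2, a ceramide synthase gene abundant in liver, which lies on the other strand, and the library kit is not stated to keep strand. Cers2 averaged 227 CPM in PWK/PhJ, 381 CPM in NOD/ShiLtJ and 705 CPM in WSB/EiJ. In PWK/PhJ, where Setdb1 was highest, Cers2 had its lowest mean, with a log2 difference of -0.91 from the other strains (edgeR adjusted p = 5.1e-05), and in NOD/ShiLtJ Cers2 differed by -0.06 (adjusted p = 0.83). Setdb1 counts were not whole in 19 libraries. The part of shared reads in the strain differences was not tested.

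Setdb2 codes for a second H3K9 enzyme of the same family. Setdb2 stood at 6.22, 5.34 and 5.17 CPM in C57BL/6J, at 8.78, 8.64 and 10.3 CPM in 129S1/SvImJ and at 6.62, 5.71 and 6.12 CPM in A/J. In DBA/2J, Setdb2 was at 6.29, 5.62 and 7.27 CPM, in NOD/ShiLtJ at 7.21, 6.72 and 6.13 CPM and in NZO/HlLtJ at 7.47, 6.0 and 8.21 CPM. WSB/EiJ had Setdb2 at 7.67, 8.11 and 5.85 CPM, CAST/EiJ at 12, 12.1 and 9.28 CPM and PWK/PhJ at 7.99, 7.56 and 7.1 CPM. CAST/EiJ and 129S1/SvImJ were high, with overlap between them, and C57BL/6J was low. The strain means spanned 1.98-fold (edgeR F test, adjusted p = 0.000101), and CAST/EiJ exceeded the other 8 strains by 0.69 ± 0.11 on the log2 scale (SE, adjusted p = 1.83e-05), whichever library was left out. Setdb2 shares no annotated exon sequence with another gene, and all its counts were whole.

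Suv39h1 and Suv39h2 code for the paired enzymes that trimethylate H3K9 at pericentromeric heterochromatin; Suv39h1 was highest in NZO/HlLtJ and Suv39h2 in DBA/2J. Suv39h1 stood at 3.49, 3.74 and 2.86 CPM in C57BL/6J, at 4.25, 6.21 and 4.27 CPM in 129S1/SvImJ and at 3.47, 2.85 and 2.21 CPM in A/J. In DBA/2J, Suv39h1 was at 4.18, 3.67 and 4.14 CPM, in NOD/ShiLtJ at 6.49, 5.2 and 4.42 CPM and in NZO/HlLtJ at 5.89, 5.54 and 5.42 CPM. WSB/EiJ had Suv39h1 at 2.15, 2.7 and 3.59 CPM, CAST/EiJ at 3.75, 4.2 and 4.12 CPM and PWK/PhJ at 3.99, 5.29 and 4.28 CPM. NZO/HlLtJ and NOD/ShiLtJ were high and WSB/EiJ and A/J low, and single libraries of most strains overlapped. Suv39h1 means spanned 2.01-fold (edgeR F test, adjusted p = 0.000602). For Suv39h2 the values rest on few reads, 2 to 53 counts per library. Suv39h2 stood at 0.479, 0.78 and 0.505 CPM in C57BL/6J, at 0.062, 0.114 and 0.261 CPM in 129S1/SvImJ and at 0.685, 0.608 and 0.751 CPM in A/J. In DBA/2J, Suv39h2 was at 0.633, 2.66 and 0.988 CPM, in NOD/ShiLtJ at 0.682, 0.45 and 0.627 CPM and in NZO/HlLtJ at 0.331, 0.152 and 0.577 CPM. WSB/EiJ had Suv39h2 at 0.211, 0.363 and 0.23 CPM, CAST/EiJ at 0.296, 0.181 and 0.258 CPM and PWK/PhJ at 0.16, 0.172 and 0.232 CPM. DBA/2J was highest, carried mostly by replicate 3, and 129S1/SvImJ was lowest. The edgeR F test over strains had an adjusted p of 0.000191. DBA/2J exceeded the other 8 strains by 2.07 ± 0.34 on the log2 scale (SE, adjusted p = 7.71e-05) and by 1.28 without DBA/2J replicate 3, and the largest adjusted p over the 27 fits without 1 library was 0.0409. Part of Suv39h2 overlaps exons of Dclre1c on the other strand, which averaged 2.75 CPM.

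Ehmt2, which codes for the G9a enzyme of mono- and dimethylated H3K9 in euchromatin, was the most counted of the 45 genes at 44.2 CPM. It spanned only 1.34-fold, from 39.2 ± 4.09 CPM in A/J to 52.4 ± 3.68 CPM in CAST/EiJ (SD, n = 3). Its edgeR F test (adjusted p = 0.0229) lost the call without CAST/EiJ replicate 1 (0.0642) or replicate 4 (0.0655), with the cell covariates (0.055) and without a filter (0.114). Ehmt1, the partner of Ehmt2, and Prdm2 were not called (adjusted p = 0.119 and 0.122).

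**Figure D3:**
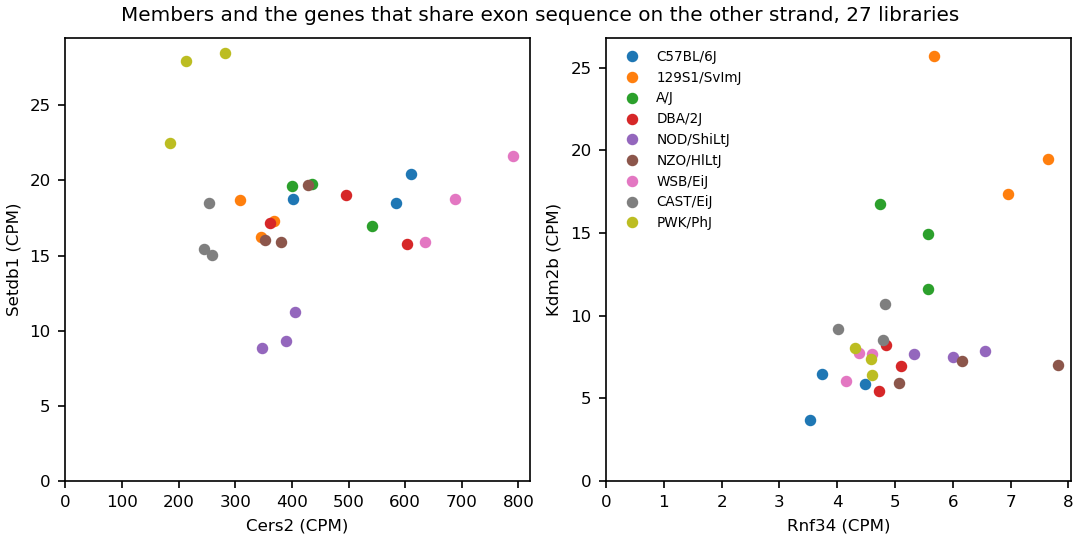
Level of Setdb1 against Cers2 (left) and of Kdm2b against Rnf34 (right) in CPM, the gene pairs that share exon sequence on opposite strands; each point is a library, coloured by strain. The 3 PWK/PhJ libraries have the highest Setdb1 levels, PWK/PhJ has the lowest mean Cers2 level, and the 129S1/SvImJ libraries the highest Kdm2b levels.

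None of the 4 genes chosen from Polycomb repressive complex 2, which methylates H3K27, was called, beside 74.2% of all genes tested. Ezh1 and Ezh2 code for its alternative catalytic subunits, Suz12 and Eed for core partners. Ezh1 had the smallest strain range of the 44 genes, 1.16-fold, with all libraries between 9.29 and 13.7 CPM (edgeR F test, adjusted p = 0.391). Ezh2 lay between 1.46 and 3.96 CPM (adjusted p = 0.239), and Suz12 and Eed had adjusted p of 0.17 and 0.307. Per kilobase of longest transcript, Ezh1 exceeded Ezh2 in 27 of 27 libraries, by 1.74 to 4.47 times, and also with the union of all exons as length. The lowest mean ratios were 2.13 ± 0.289 (SD, n = 3) in NZO/HlLtJ and 2.26 ± 0.663 in NOD/ShiLtJ, and the highest 3.61 ± 0.455 in 129S1/SvImJ. With the libraries permuted over strains 100000 times, the log2 ratio differed among strains at p = 0.04 (permutation test, adjusted p = 0.04 over the 2 ratios tested). Leaving out 1 library gave p from 0.00805 to 0.101, the largest without NZO/HlLtJ replicate 1, and 14 single libraries moved it over 0.05. These were C57BL/6J replicates 1 and 2, 129S1/SvImJ replicates 2 and 3, NOD/ShiLtJ replicates 1 and 3, NZO/HlLtJ replicates 1, 2 and 3, WSB/EiJ replicates 3 and 4, CAST/EiJ replicate 4 and PWK/PhJ replicates 1 and 3.

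Histone demethylases were called in 3 of 12 genes, beside 74.2% of all genes tested: Kdm2b, Kdm4a and Kdm3a. Kdm2b codes for an H3K36 demethylase that binds unmethylated CpG islands and brings a variant Polycomb complex to them. Kdm2b stood at 5.84, 3.65 and 6.48 CPM in C57BL/6J, at 17.3, 19.5 and 25.7 CPM in 129S1/SvImJ and at 11.6, 14.9 and 16.7 CPM in A/J. In DBA/2J, Kdm2b was at 6.97, 5.42 and 8.22 CPM, in NOD/ShiLtJ at 7.89, 7.48 and 7.67 CPM and in NZO/HlLtJ at 7.03, 5.92 and 7.28 CPM. WSB/EiJ had Kdm2b at 7.76, 7.7 and 6.03 CPM, CAST/EiJ at 10.7, 9.18 and 8.51 CPM and PWK/PhJ at 7.35, 6.39 and 8.03 CPM. The 129S1/SvImJ libraries lay above all 24 others, the A/J libraries came next and were above those of the other 7 strains, and C57BL/6J was lowest. Kdm2b had the largest F of the 44 genes, with strain means from 5.33 ± 1.48 to 20.8 ± 4.36 CPM, a 3.93-fold range (edgeR F test, adjusted p = 2.73e-08). Against the other 8 strains the log2 difference was 1.42 ± 0.13 (SE, adjusted p = 1.02e-08) in 129S1/SvImJ, 0.82 ± 0.14 (adjusted p = 8.58e-05) in A/J and -0.79 ± 0.16 (adjusted p = 0.000904) in C57BL/6J. These 3 calls held without any 1 library and in all the other fits tried. Kdm2b counts were never whole, and its exons overlap Rnf34, a ubiquitin ligase gene, and A930024E05Rik on the other strand and Gm44574 on its own. Rnf34 was also highest in 129S1/SvImJ, at 6.75 CPM against 3.92 CPM in C57BL/6J, with a log2 difference of 0.46 from the other strains (edgeR adjusted p = 0.00666). The part of shared reads was not tested.

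Kdm4a codes for a demethylase of trimethylated H3K9 and H3K36. Kdm4a stood at 19.6, 15.6 and 19.3 CPM in C57BL/6J, at 17.4, 17.6 and 13.1 CPM in 129S1/SvImJ and at 20.4, 18.7 and 21.3 CPM in A/J. In DBA/2J, Kdm4a was at 21.2, 18.6 and 18.4 CPM, in NOD/ShiLtJ at 18.2, 15 and 15.1 CPM and in NZO/HlLtJ at 18.6, 16.3 and 19 CPM. WSB/EiJ had Kdm4a at 17.7, 16.1 and 14.7 CPM, CAST/EiJ at 14.3, 12.3 and 10.5 CPM and PWK/PhJ at 13.2, 16.6 and 10.8 CPM. CAST/EiJ and PWK/PhJ were low and A/J and DBA/2J high, and single libraries of most strains overlapped. The strain means spanned 1.64-fold (edgeR F test, adjusted p = 0.0053, and 0.0504 with the cell covariates). Kdm3a, an H3K9 demethylase gene, was lowest in NZO/HlLtJ at 8.46 ± 1.1 CPM and highest in CAST/EiJ at 12.7 ± 2.23 CPM (edgeR F test, adjusted p = 0.0198). That call was lost without NZO/HlLtJ replicate 1 (0.058) or replicate 2 (0.0623) and without a filter (0.0516). The other 9 demethylase genes were not called. Kdm3b, the relative of Kdm3a, had the second largest adjusted p of the 44 genes (0.47) and spanned 1.23-fold. The H3K4 demethylase genes Kdm1a, Kdm5a and Kdm5b spanned 1.33-, 1.51- and 1.39-fold, and the H3K27 demethylase gene Kdm6b 1.49-fold. Kdm5a (edgeR F test, adjusted p = 0.0943) passed with DESeq2 (0.0364), with the cell covariates (0.0101) and with the GC trend removed (0.0358). Kdm2a, Kdm4b, Kdm4c and Kdm7a lay between 1.29- and 1.53-fold.

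DNA methylation writers were called in 3 of 4 genes, a share close to the 74.2% of all genes tested: Dnmt3b, Uhrf1 and Dnmt3a. Dnmt3b codes for a de novo methyltransferase. Dnmt3b stood at 2.22, 1.07 and 2.69 CPM in C57BL/6J, at 3.91, 3.35 and 2.15 CPM in 129S1/SvImJ and at 4.48, 3.51 and 3.79 CPM in A/J. In DBA/2J, Dnmt3b was at 4.26, 2.71 and 4.97 CPM, in NOD/ShiLtJ at 6.62, 6.2 and 4.98 CPM and in NZO/HlLtJ at 6.35, 4.4 and 6.29 CPM. WSB/EiJ had Dnmt3b at 3.54, 2.74 and 1.15 CPM, CAST/EiJ at 3.4, 2.45 and 3.92 CPM and PWK/PhJ at 5.67, 8.69 and 5.64 CPM. PWK/PhJ, NOD/ShiLtJ and NZO/HlLtJ were high and C57BL/6J and WSB/EiJ low, with the single lowest value in C57BL/6J replicate 2 and the single highest in PWK/PhJ replicate 2. Strain means spanned 3.42-fold (edgeR F test, adjusted p = 0.000667). Dnmt3a, its paralog, spanned 1.6-fold, from 8.63 ± 1.71 CPM in NOD/ShiLtJ to 13.9 ± 2.8 CPM in A/J (edgeR F test, adjusted p = 0.0424). That call was lost in 12 of 27 fits without 1 library, with adjusted p up to 0.128 (without NOD/ShiLtJ replicate 2), with the cell covariates (0.0849), without a filter (0.094) and with the GC (0.0555) or length trend removed (0.148). The libraries concerned were 129S1/SvImJ replicate 2, A/J replicates 2 and 3, DBA/2J replicates 2 and 4, NOD/ShiLtJ replicates 2 and 3, NZO/HlLtJ replicates 2 and 3, WSB/EiJ replicate 2 and CAST/EiJ replicates 1 and 5.

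The RNA ratio of the paired de novo enzyme genes differed between strains. Per kilobase of longest transcript, the ratio of Dnmt3a to Dnmt3b ran from 0.491 to 4.82 over the libraries. It averaged 0.657 ± 0.153 (SD, n = 3) in NOD/ShiLtJ, 0.758 ± 0.135 in PWK/PhJ and 0.834 ± 0.118 in NZO/HlLtJ. In C57BL/6J it averaged 2.95 ± 1.31 and in WSB/EiJ 2.66 ± 1.87, with 129S1/SvImJ, A/J, CAST/EiJ and DBA/2J between 1.53 and 1.64. All 9 libraries of NOD/ShiLtJ, NZO/HlLtJ and PWK/PhJ were under 1 and all 18 others over 1. Whether a library crosses 1 depends on the length used, since with the union of all exons 12 libraries were over 1. The log2 ratio differed among strains in a permutation test of the libraries over strains (100000 permutations, p = 0.00021, adjusted p = 0.00042 over the 2 ratios), and p stayed between 4e-05 and 0.00103 when 1 library was left out. Dnmt3b itself differed among strains, so the test of the ratio is not independent of it. That test was not repeated with the cell covariates.

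Uhrf1, which codes for the protein that brings Dnmt1 to newly replicated DNA, had the widest strain range, 7.47-fold, at a low level. Strain means were 0.903 ± 0.411 CPM (SD, n = 3) in NZO/HlLtJ, 0.813 ± 0.56 in NOD/ShiLtJ, 0.691 ± 0.445 in DBA/2J and 0.539 ± 0.471 in C57BL/6J. In the other 5 strains they lay between 0.0543 ± 0.0423 CPM in CAST/EiJ and 0.263 ± 0.253 CPM in 129S1/SvImJ. Libraries of a strain differed widely, as in C57BL/6J with 0.0342, 0.616 and 0.967 CPM, and neighbouring strains in this order overlapped. The edgeR F test gave an adjusted p of 0.00945, and the prior count enters the fold. In CAST/EiJ the 3 libraries held 1, 1 and 2 counts, and the ratio of their summed count to that of the other 24 libraries, scaled to library size, was 0.0982 (exact 95% interval 0.0266 to 0.254, counting error only). PWK/PhJ replicate 3 held 0 counts, which allows a level of up to 0.0996 CPM at 3 counts.

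The summed level of 15 proliferation genes is given beside Uhrf1. Of these genes, 11 differed between strains, and none was at 0 in all libraries. Their summed level was 31.2 to 48.2 CPM in NZO/HlLtJ, 29.6 to 59.9 CPM in DBA/2J, 27.3 to 55.2 CPM in NOD/ShiLtJ and 30.1 to 39.1 CPM in C57BL/6J. It was 21.9 to 26.6 CPM in 129S1/SvImJ and 23.6 to 28.4 CPM in CAST/EiJ. Between these lay A/J at 26.5 to 38.6 CPM, PWK/PhJ at 30.8 to 32.6 CPM and WSB/EiJ at 27.8 to 28.7 CPM. The part of dividing cells in the Uhrf1 result was not tested. Dnmt1, which copies methylation with Uhrf1, was not called over strains (adjusted p = 0.128) and ranged from 6.56 ± 0.818 CPM in WSB/EiJ to 10.1 ± 2.23 CPM in PWK/PhJ.

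Over strains, neither of the TET enzyme genes tested was called, beside 74.2% of all genes; Tet2 was called lower in CAST/EiJ. Tet3 was the most abundant per kilobase of longest transcript at 1.29 CPM, followed by Tet2 at 0.932 and Tet1 at 0.00443. Tet2 spanned 1.88-fold, with a lowest mean of 5.72 ± 0.931 CPM in CAST/EiJ and a highest of 10.9 ± 2.08 CPM in A/J (SD, n = 3), and missed the threshold (edgeR F test, adjusted p = 0.0575). It passed with DESeq2 (0.0378), without a filter (0.0274), with the cell covariates (0.0213), with the length trend removed (0.0375) and in 5 fits without 1 library (0.00931 without C57BL/6J replicate 4, and 0.0357 to 0.0397 without A/J replicate 1, NZO/HlLtJ replicate 2, PWK/PhJ replicate 3 or WSB/EiJ replicate 4). Tet3 spanned 1.37-fold (adjusted p = 0.229). Tet1 held 0 to 5 counts per library, and strain differences were not detectable at this depth.

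Both methyl-CpG reader genes were called, beside 74.2% of all genes tested. Mbd2 stood at 21.7, 20.7 and 21.7 CPM in NZO/HlLtJ, above all libraries of the other strains, the highest of which held 19.8 CPM. NZO/HlLtJ exceeded the other 8 strains in Mbd2 by 0.42 ± 0.10 on the log2 scale (SE, edgeR adjusted p = 0.00404, and 0.158 with the cell covariates), and the adjusted p over strains was 0.00879 (0.0602 with the covariates). Mbd1 was highest in WSB/EiJ at 15.2 ± 4.51 CPM and lowest in PWK/PhJ at 7.16 ± 1.33 CPM (SD, n = 3; edgeR F test, adjusted p = 0.0193). Its call was lost without WSB/EiJ replicate 2 (0.0774).

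Across the 25 genes not called in the reported fit, of which 11 passed in at least 1 alternative fit, the adjusted p ran from 0.0502 to 0.758 and the range of strain means from 1.16- to 1.88-fold. Over all 44 genes, 14 of the 19 calls were kept in each of the 27 fits without 1 library, and 12 were kept in all 35 alternative fits. Those lost without a library were Kmt2d, Dnmt3a, Ehmt2, Kdm3a and Mbd1, with the values given above. Of the 45 genes, 20 share exon sequence with another annotated gene, and 28 had whole counts in every library. Among the 20 tested genes free of both, 9 (45%) were called, and among the other 24, 10 (41.7%).

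Each strain was then set against the mean of the other 8, so that the 9 comparisons share libraries. Of 396 such tests of a gene in a strain, 48 (12.1%) were called, 28 higher and 20 lower, against 24.1% of such tests over all genes. These calls fell on 23 genes, including the 19 called over strains. The share of all genes called in at least 1 strain was not computed. Of the 396 tests, 7 were called at 2-fold or more (1.77%, against 9.96% of such tests over all genes) and 5 were called with no overlap with libraries of other strains (1.26% against 2.83%). Leaving out 1 library at a time kept 12 calls throughout and lost 36 in at least 1 fit, 29 of these only when a library of the strain itself was left out. With the Kupffer cell and endothelial covariates 22 of the 48 calls were lost; the log2 difference moved by more than 1.5 times in 6 of these and by less in 16. In all 35 alternative fits 10 of the 48 were kept. The 12 kept without any 1 library were Kdm2b in 129S1/SvImJ, A/J and C57BL/6J, Setdb1 in NOD/ShiLtJ and PWK/PhJ, Kmt5a in NZO/HlLtJ and WSB/EiJ, Setdb2 in CAST/EiJ, Suv39h2 in DBA/2J, Mbd2 in NZO/HlLtJ, Setd1a in PWK/PhJ and Kmt2a in WSB/EiJ. Of these, Kmt5a and Mbd2 in NZO/HlLtJ were lost with the cell covariates.

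**Figure D4:**
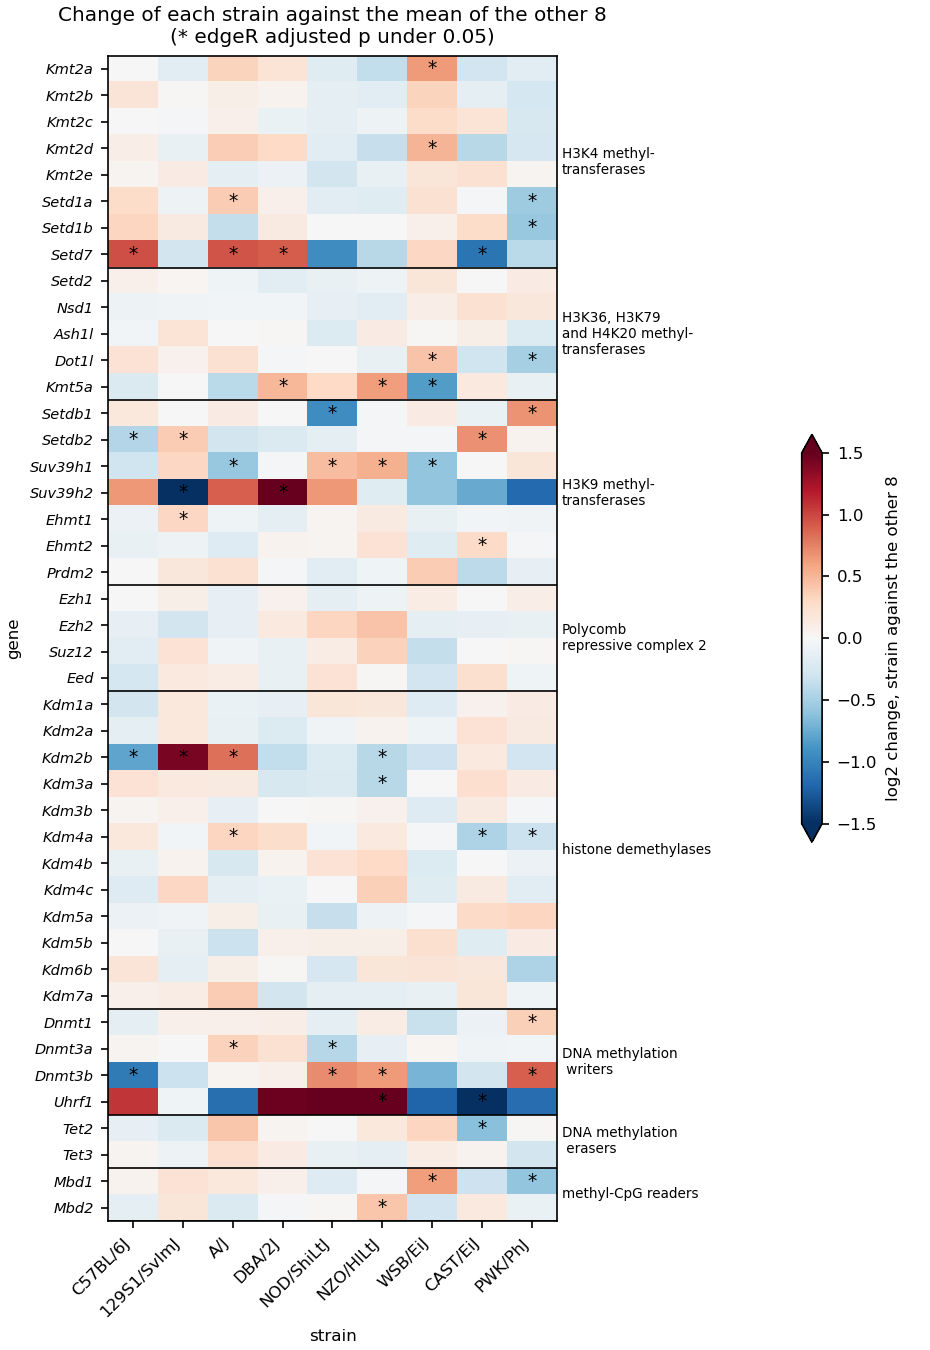
Log2 change of each strain against the mean of the other 8 for the 44 genes tested, grouped by role; red is higher, blue lower, colours end at 1.5 in either direction, and stars mark an edgeR adjusted p under 0.05. The stars fall in 12.1% of the 396 cells, against 24.1% of such tests over all genes. None falls in the rows of Polycomb repressive complex 2.

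In C57BL/6J, 4 genes were called, 9.09% of the 44 against 18.1% of all genes. Of these 1 was higher, a direction taken by 11.6% of all genes, and 3 lower, a direction taken by 6.5%. The largest change was that of Dnmt3b, lower by a log2 difference of -1.06 ± 0.28 (SE, edgeR adjusted p = 0.00929). It was lost without C57BL/6J replicate 2 (0.114) and with the cell covariates (log2 difference -0.64, adjusted p = 0.299), and Kupffer cell sums were highest in this strain. The covariates also ended the call of Setd7, whose log2 difference went from 0.96 to 0.58 (0.457), and that of Setdb2, which went from -0.44 to -0.37 (0.189). Setdb2 was also lost without C57BL/6J replicate 2 (0.0874) or replicate 4 (0.117), and Setd7 without replicate 1 (0.0815), replicate 2 (0.0531) or replicate 4 (0.0952); Kdm2b kept its call. The count fell to 2 without C57BL/6J replicate 2 or replicate 4. In 129S1/SvImJ, 4 genes were called (9.09% against 18.4%), 3 higher beside 10.5% of all genes and 1 lower beside 7.86%, with the largest change in Suv39h2 (-1.58 ± 0.48, adjusted p = 0.025). That call was lost without 129S1/SvImJ replicate 1 (0.174) or replicate 2 (0.133) and with the covariates (log2 difference -1.46, adjusted p = 0.0805), and the count fell to 1 and 2 without these libraries. Setdb2 was higher by 0.38 on the log2 scale, and its call was lost without 129S1/SvImJ replicate 1 (0.0567) or replicate 3 (0.144), without a filter (0.068) and with the covariates (0.34 on the log2 scale, adjusted p = 0.102). Ehmt1 was also higher in 129S1/SvImJ, at 17.1 ± 1.87 CPM (SD, n = 3) against a mean of 13.8 CPM elsewhere (adjusted p = 0.0252). That call was lost without 129S1/SvImJ replicate 1 (0.212) or replicate 2 (0.117), with the covariates (0.154, the log2 difference going from 0.31 to 0.23) and without a filter (0.0937), and Kupffer cell sums were lowest in this strain. Ehmt1 shares exon sequence with Gm37139 on its own strand.

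A/J had 6 genes called, 13.6% against 27.5% of all genes, 5 higher beside 15.9% and 1 lower beside 11.6%. Setd7 changed most, by 0.94 ± 0.29 on the log2 scale (SE, edgeR adjusted p = 0.018), and its call was lost without A/J replicate 3 (0.128) and with the cell covariates (log2 difference 0.72, adjusted p = 0.167). The covariates also ended the calls of Suv39h1 (0.0637), Kdm4a (0.0873) and Dnmt3a (0.0891), while their log2 differences went from -0.57 to -0.53, from 0.33 to 0.35 and from 0.34 to 0.39. Without A/J replicate 3 the calls of Setd1a (0.124), Suv39h1 (0.158), Kdm4a (0.206) and Dnmt3a (0.214) were lost too. Kdm4a was also lost without A/J replicate 1 (0.0995) or replicate 2 (0.058), without a filter (0.0797) and with the length trend removed (0.0628). Dnmt3a was also lost without A/J replicate 2 (0.308) or NZO/HlLtJ replicate 2 (0.0505), without a filter (0.08) and with the length trend removed (0.126). The count was 1 without A/J replicate 3 and 10 without A/J replicate 1, and the split was 3 higher and 2 lower with a trend on transcript length removed. DBA/2J had 3 genes called (6.82% against 13.3%), all higher, beside 9.5% of all genes higher and 3.78% lower, Suv39h2 with the largest change, followed by Setd7 and Kmt5a. Setd7 was lost without any 1 of the DBA/2J libraries (0.0695 to 0.211, the largest without replicate 3) and Kmt5a without DBA/2J replicate 3 (0.084) or replicate 4 (0.132). Without DBA/2J replicate 3 or replicate 4 the count was 1. NOD/ShiLtJ had 4 (9.09% against 14.9%), 2 higher beside 9.2% and 2 lower beside 5.72%, led by the lower Setdb1, with Dnmt3a lower and Suv39h1 and Dnmt3b higher. With the covariates Dnmt3b went from 0.71 to 0.62 on the log2 scale (adjusted p = 0.0645). Setdb1 alone kept its call without any 1 library. Dnmt3a was lost without NOD/ShiLtJ replicate 2 (0.262) or replicate 3 (0.086) and with the length trend removed (0.105), and Suv39h1 without NOD/ShiLtJ replicate 1 (0.332) or replicate 2 (0.106) and without a filter (0.0787). Dnmt3b was lost without any 1 of the NOD/ShiLtJ libraries (0.0619 to 0.19). The count was 2 without NOD/ShiLtJ replicate 1 and 1 without replicate 2, with 2 higher and 1 lower when the length trend was removed.

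NZO/HlLtJ had 7 genes called (15.9% against 27.6%), 5 higher beside 14.8% of all genes and 2 lower beside 12.9%. Uhrf1 changed most, by 1.94 ± 0.58 on the log2 scale (SE, edgeR adjusted p = 0.0161), and its call was lost without NZO/HlLtJ replicate 1 (0.134) or replicate 2 (0.0842). The higher genes also included Kmt5a, Mbd2, Suv39h1 and Dnmt3b, and the lower ones were Kdm3a and Kdm2b. With the cell covariates Uhrf1 alone kept its call (0.0498), and the adjusted p was 0.171 for Suv39h1, 0.315 for Dnmt3b, 0.0661 for Kdm3a and 0.201 for Kdm2b. The log2 difference went from 0.53 to 0.39 in Suv39h1, from 0.64 to 0.46 in Dnmt3b, from -0.41 to -0.42 in Kdm3a and from -0.41 to -0.38 in Kdm2b. It went from 0.63 to 0.35 in Kmt5a and from 0.42 to 0.25 in Mbd2. Leaving out 1 library kept Kmt5a and Mbd2, and Suv39h1 was lost without NZO/HlLtJ replicate 1 (0.0625) and Kdm3a without NZO/HlLtJ replicate 1 (0.109) or replicate 2 (0.14). Dnmt3b was lost without any 1 of the NZO/HlLtJ libraries (0.0503 to 0.201), NOD/ShiLtJ replicate 3 (0.0505) or CAST/EiJ replicate 4 (0.0508). Kdm2b was lost without a filter (0.0766), with the GC (0.0504) or length trend removed (0.068) and in 17 of 27 fits without 1 library, at up to 0.246 without NZO/HlLtJ replicate 2: C57BL/6J replicate 4, 129S1/SvImJ replicates 2 and 3, A/J replicates 2 and 3, DBA/2J replicate 2, NOD/ShiLtJ replicates 1, 2 and 3, NZO/HlLtJ replicates 1, 2 and 3, WSB/EiJ replicates 2 and 3, CAST/EiJ replicates 1 and 4 and PWK/PhJ replicate 3. The count was 2 without NZO/HlLtJ replicate 1, 3 without replicate 2 and 1 with the cell covariates, the split was 7 higher and 1 lower with a GC or length trend removed, and endothelial sums were lowest in this strain. WSB/EiJ had 6 genes called (13.6% against 24.7%), 4 higher beside 15.5% of all genes and 2 lower beside 9.25%. The higher ones were Kmt2a, Kmt2d, Dot1l and Mbd1 and the lower ones Kmt5a, with the largest change, and Suv39h1. Kmt2a and Kmt5a kept their calls in all 35 alternative fits. Dot1l was lost without WSB/EiJ replicate 2 (0.108) or replicate 3 (0.115), Suv39h1 without WSB/EiJ replicate 2 (0.125) or replicate 3 (0.0647), and Mbd1 without WSB/EiJ replicate 2 (0.234). Kmt2d (adjusted p = 0.043) was lost in 12 of 27 fits without 1 library, at up to 0.282 without WSB/EiJ replicate 2: C57BL/6J replicate 2, 129S1/SvImJ replicates 1 and 2, DBA/2J replicate 3, NOD/ShiLtJ replicate 2, NZO/HlLtJ replicates 1 and 2, WSB/EiJ replicates 2, 3 and 4 and CAST/EiJ replicates 1 and 5. The count in WSB/EiJ was 3 without WSB/EiJ replicate 2 or replicate 3, 10 without A/J replicate 3 and 12 with the covariates.

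CAST/EiJ had 6 genes called (13.6% against 37.9%), 2 higher beside 20.1% of all genes and 4 lower beside 17.8%. The largest change was the lower Uhrf1, fitted at -2.70 ± 1.04 on the log2 scale (SE, edgeR adjusted p = 0.0429) from 4 counts in all. With the cell covariates it went to -1.99 (adjusted p = 0.182), and Setd7 from -1.09 to -0.88 (0.0744). The Uhrf1 call was also lost in 15 of the 27 fits without 1 library, at up to 0.165 without CAST/EiJ replicate 1: all libraries of CAST/EiJ, C57BL/6J replicates 2 and 4, 129S1/SvImJ replicate 3, A/J replicate 2, DBA/2J replicate 3, NOD/ShiLtJ replicates 1 and 2, NZO/HlLtJ replicates 1 and 2, WSB/EiJ replicate 2 and PWK/PhJ replicates 1 and 2. Setdb2 and Ehmt2 were higher, and Kdm4a, Tet2 and Setd7 lower. Setdb2 alone kept its call without any 1 library. Ehmt2 was lost without CAST/EiJ replicate 1 (0.0801) or replicate 4 (0.0803), Kdm4a without replicate 5 (0.0621), Tet2 without replicate 1 (0.101) or replicate 5 (0.058), and Setd7 without replicate 1 (0.183) or replicate 5 (0.0653). The count was 2 without CAST/EiJ replicate 1, and 13 (8 higher, 5 lower) with a trend on transcript length removed from each library. PWK/PhJ had 8 genes called (18.2% against 34.2%), 3 higher beside 19.4% and 5 lower beside 14.8%. Dnmt3b changed most there, by 0.90 ± 0.23 (SE, adjusted p = 0.00303), and lost the call without PWK/PhJ replicate 2 (0.0781). Setdb1 and Dnmt1 were also higher, and Setd1a, Setd1b, Dot1l, Kdm4a and Mbd1 lower. With the cell covariates 3 of these calls were lost, and endothelial sums were highest in this strain. The log2 difference went from 0.36 to 0.23 in Dnmt1 (adjusted p = 0.397), from -0.32 to -0.19 in Kdm4a (0.396) and from -0.57 to -0.53 in Setd1b (0.116). Setd1a and Setdb1 kept their calls in all 35 alternative fits. Setd1b was lost without PWK/PhJ replicate 1 (0.0563) or replicate 2 (0.169), Dot1l without replicate 2 (0.0713), and Mbd1 without replicate 1 (0.0865) or replicate 3 (0.112). Dnmt1 was lost without a filter (0.0717) and in 10 fits without 1 library, at up to 0.435 without PWK/PhJ replicate 1: C57BL/6J replicate 2, A/J replicate 2, DBA/2J replicate 2, NOD/ShiLtJ replicates 2 and 3, NZO/HlLtJ replicate 2, WSB/EiJ replicate 4, CAST/EiJ replicate 1 and PWK/PhJ replicates 1 and 2. Kdm4a was lost without a filter (0.0722) and in 7 such fits, at up to 0.339 without PWK/PhJ replicate 3: 129S1/SvImJ replicates 1 and 2, NZO/HlLtJ replicates 1 and 3, WSB/EiJ replicate 2 and PWK/PhJ replicates 1 and 3. The count was 5 without PWK/PhJ replicate 1 and 4 without replicate 2, and the split was 3 higher and 9 lower with the length trend removed.

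**Figure D5:**
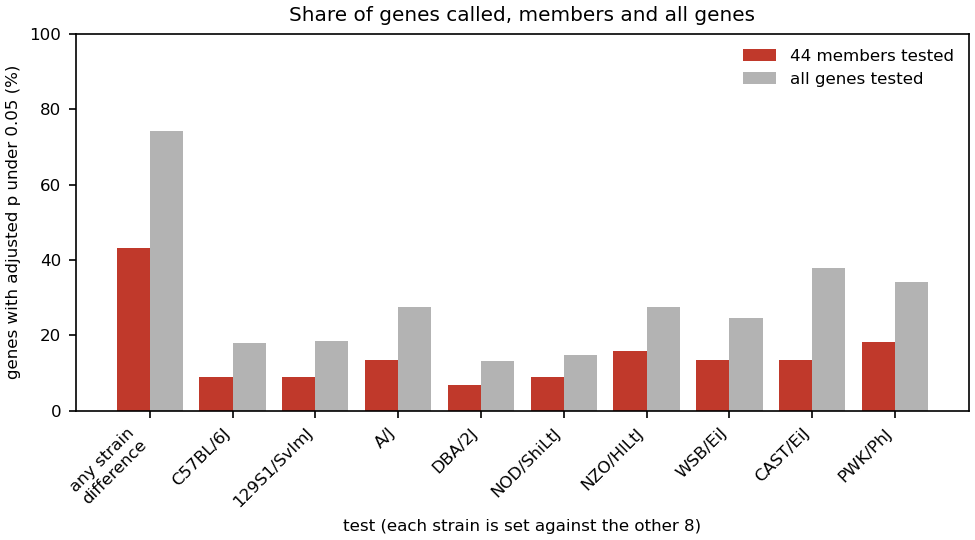
Share of genes called at an edgeR adjusted p under 0.05 (in %) among the 44 genes of histone and DNA methylation (red) and all 14482 genes tested (grey), for the test over strains and for each strain against the other 8. The red bars run from 6.82% to 18.2% for single strains and stand under the grey bar in every test.

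Other genes of the same pathways, from lists chosen by function, were tested in the same fit. Of 13 subunits of the MLL/COMPASS complexes, which hold the H3K4 methyltransferases, 7 differed between strains (53.8%), with a median range of 1.42-fold. Psip1 and Cxxc1 had the largest F: Psip1 was highest in NZO/HlLtJ at 14.8 ± 0.21 CPM (SD, n = 3) and lowest in WSB/EiJ at 7.67 ± 0.827 CPM, with counts not whole in any library. Cxxc1, which codes for the subunit that binds unmethylated CpG, stood at 23.8 ± 0.753 CPM in NOD/ShiLtJ, its highest strain, and 13.9 ± 1.69 CPM in PWK/PhJ, its lowest. Of 26 Polycomb partners 17 were called (65.4%, median 1.72-fold). Rbbp4 was among those called and Rbbp7 was not (edgeR F test, adjusted p = 0.0163 and 0.0505). Pcgf2 and Phc1, subunits of Polycomb repressive complex 1, were highest in CAST/EiJ, at 2.88 ± 0.491 and 4.00 ± 0.328 CPM, and lowest at 0.57 ± 0.161 CPM in NOD/ShiLtJ and 0.785 ± 0.0502 CPM in A/J.

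Among other histone methyltransferases 13 of 19 tested were called (68.4%, median 1.63-fold), led by Smyd2 (12.2 CPM in C57BL/6J to 24.9 CPM in NZO/HlLtJ) and Setd6 (10.1 CPM in PWK/PhJ, 19.04 CPM in WSB/EiJ). Other demethylases had 5 of 10 called (50%, median 1.56-fold), led by Kdm1b, with 17.8 CPM in PWK/PhJ and 30.2 CPM in CAST/EiJ, and Riox2. Other DNA methylation genes had 7 of 14 called (50%, median 1.49-fold). Tdg, the glycosylase that removes oxidised methylcytosine, ran from 6.24 CPM in DBA/2J to 9.83 CPM in C57BL/6J, and Gadd45g from 3.55 ± 3.63 CPM in DBA/2J to 30.8 ± 15.7 CPM in A/J (SD, n = 3). Among the genes that supply methyl donors and cofactors, 19 of 20 were called (95%, median 2.11-fold). Ahcy, which clears S-adenosylhomocysteine, was at 1341 ± 207 CPM in PWK/PhJ and 45.2 ± 5.11 CPM in NZO/HlLtJ (edgeR F test, adjusted p = 9.83e-19), with counts not whole in any of the 27 libraries. Nnmt, which uses up S-adenosylmethionine to methylate nicotinamide, was at 245 ± 74.1 CPM in CAST/EiJ and 2.79 ± 1.58 CPM in A/J, a 95.9-fold range on the log2 scale with a prior count of 2 (adjusted p = 1.07e-09). The share called was 74.2% over all genes tested, and differences between the lists were not tested. The 12 genes with the largest F of their lists kept their calls in all 35 alternative fits.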

How the data were processed

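Polyadenylated RNA of liver hepatocytes was sequenced after RNeasy extraction with DNase and TruSeq RNA v2 library preparation, per the labels' protocols, which state no strand. The authors deposited a table of estimated (expected) counts per Ensembl gene, not scaled to depth; the submitters' processing notes name FastQC 0.11.5, DESeq2 without a version, and the builds GRCm38 and mm10. The aligner, the counter, the annotation release and whether a genome of each strain was used are not given in the sources used here, and reads of divergent strains may align less well to a single reference. In the deposited estimated counts 14.7% of values were not whole, as happens when reads are divided between genes. Symbols came from GENCODE M21 (42462 of 43346 genes); the rest held 0.0579% of counts.

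Counts were rounded and genes kept with filterByExpr (14482), scaled by TMM (factors 0.722 to 1.226) and fitted with glmQLFit and glmQLFTest of edgeR 4.0.16 (R 4.3.3, limma 3.58.1) on all 27 libraries with strain as the only factor. All strains were tested together, and each against the mean of the other 8. P-values were adjusted by Benjamini and Hochberg over all genes tested, and a gene was called at an adjusted p under 0.05. SE were derived from the F statistic. Levels are CPM, and ranges use log2 CPM with a prior count of 2. Ratios of paralogs were tested by 100000 permutations of libraries over strains. Library totals of 17015932 to 35078483 counts set a floor of 3 counts, which covers counting error only.

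The alternatives were DESeq2 1.42.0, median-of-ratios size factors, no filter, a mean of at least 10 counts, a replicate block, cell covariates, trends on GC and on length removed (spline of 5 degrees of freedom, with values for 99.1% of tested genes), and leaving out each library. The cell covariates were the mean log2 CPM of the Kupffer cell markers and of the endothelial markers, with a prior count of 2. Library values are given for the 10 called genes with the largest F, strain means for other called genes, the largest called change in each strain, the 3 largest adjusted p, 3 sets of paralogs, and 2 genes per pathway list. The 45 genes were chosen by symbol. The lists, bands, tests and the rule for which genes to describe in detail were chosen with earlier results of these data known.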

Additional observations from a re-analysis of the deposited data

How the results depend on the processing

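The number of genes called over strains, 19 of 44, was 23 with DESeq2, 20 with median-of-ratios size factors, 18 of 45 without a filter, 19 with a mean of at least 10 counts, 17 with the Kupffer cell and endothelial covariates, 20 with the GC trend removed and 27 with the length trend removed, and 16 to 21 when 1 library was left out. All genes tested were called in 79%, 74.7%, 46.4%, 76.2%, 67.3%, 75.7% and 76% in these fits. No called change reversed its direction in any fit. With the cell covariates the number called fell to 1 in C57BL/6J, 1 in 129S1/SvImJ, 2 in A/J and 1 in NZO/HlLtJ and rose to 12 in WSB/EiJ. Without a filter it fell to 2 in 129S1/SvImJ and to 8 of the other histone methyltransferases (13 in the reported fit), and with the length trend removed it rose to 13 in CAST/EiJ. The shares of all genes called in the same strain and fit are not given here. Whether these moves are particular to the 44 genes was not tested, nor was their cause. Without 1 library the number was 2 to 5 in C57BL/6J, 1 to 4 in 129S1/SvImJ, 1 to 10 in A/J, 1 to 3 in DBA/2J, 1 to 5 in NOD/ShiLtJ, 2 to 9 in NZO/HlLtJ, 3 to 10 in WSB/EiJ, 2 to 8 in CAST/EiJ and 4 to 9 in PWK/PhJ; for the lists it was 6 to 8 COMPASS subunits, 14 to 19 Polycomb partners, 9 to 13 other methyltransferases, 4 to 5 other demethylases, 5 to 8 other DNA methylation genes and 17 to 19 methyl donor genes.

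The labels do not say whether a replicate number marks a shared batch or day. Over 76 pairs of libraries with the same number, correlations of deviations from strain means averaged 0.01 (-0.293 to 0.275). Of these pairs 17 exceeded 0.1, and 7 of 27 libraries were closest to their own number. Pairs with other numbers averaged -0.00315. Such averages cannot exclude a batch shared by some libraries. With the replicate block, 15 of the 44 genes were called (64.6% of all genes), the calls of Kmt2d (0.146), Ehmt2 (0.077), Dnmt3a (0.0664), Mbd1 (0.0554) and Kdm3a (0.0535) being lost, with 2 in NOD/ShiLtJ, 2 in CAST/EiJ, both higher, and 7 of the other histone methyltransferases. In CAST/EiJ the block ended the calls of Ehmt2 (0.0713), Setd7 (0.0807), Kdm4a (0.0849), Tet2 (0.098) and Uhrf1 (0.109). In NOD/ShiLtJ it ended those of Dnmt3a (0.0645) and Dnmt3b (0.0546), and Setd7 was lost in DBA/2J (0.116) and C57BL/6J (0.0614). Also lost were Kmt2d in WSB/EiJ (0.0936), Kdm4a in A/J (0.0619), Kdm2b in NZO/HlLtJ (0.0625) and Dnmt1 in PWK/PhJ (0.0539). Of the 25 genes not called, 11 were called in at least 1 alternative and 14 in none. Depth limits Tet1, Uhrf1 and Suv39h2, with at most 5, 49 and 53 counts per library.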
